A study of Mus musculus with 20 samples.

Results

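The effect of adding PCB 126 to Aroclor 1260 was examined in liver, by comparing 5 mice of the HFD + Aroclor + PCB 126 group (the combined exposure) with 5 mice of the HFD + Aroclor group. These are 10 of the 20 RNA-seq libraries of the study, taken by the exposure named in the column headers of the count table, and 15522 of its 21780 genes reached the 10 counts in all (summed across the 20 libraries) that the test required. All mice were male C57Bl/6J, were 8 weeks old when the high-fat diet (HFD, 42% of kcal from fat) began and were fed it throughout, so diet is shared by every group. At 10 weeks of age each mouse received 1 oral gavage: Aroclor 1260 at 20 mg/kg in the HFD + Aroclor group, the same dose with PCB 126 at 20 µg/kg in the combined group, PCB 126 alone at 20 µg/kg in the HFD + PCB 126 group, or corn oil in the HFD control group. Livers were collected after 12 weeks of the diet and about 6 h of fasting, which is 10 weeks after gavage by the study's methods, whereas the sample labels give 12 weeks of exposure. The HFD + Aroclor mice, which carry both the diet and Aroclor 1260, are the reference here, and a log2 fold change (log2FC) is the combined exposure minus Aroclor.

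Aroclor 1260 is a commercial mixture of highly chlorinated biphenyls, most of which do not bind the aryl hydrocarbon receptor (AhR). They are known instead for acting on the constitutive androstane receptor (CAR) and the pregnane X receptor (PXR), which control many cytochrome P450 genes of the liver. PCB 126 is a dioxin-like congener and a strong AhR ligand: the bound receptor enters the nucleus, pairs with ARNT and switches on genes such as Cyp1a1 and Cyp1a2 through DNA elements with the core GCGTG. The comparison therefore asks what the dioxin-like congener adds in a liver already exposed to the other PCBs.

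Each library was the liver of 1 mouse. The 13 listed hepatocyte markers summed to 102139 to 127481 CPM (counts scaled to a common library size) with Aroclor and to 96513 to 133413 CPM with the combined exposure, so both groups had the transcripts of the labelled tissue. Because the tissue is bulk liver, fewer cells of a type and less RNA per cell cannot be told apart. Total counts were 31265022 to 35611837 with Aroclor and 23471120 to 29366462 with the combined exposure, ranges that do not overlap (two-sided exact permutation test, p = 0.00794, the smallest that 5 against 5 mice allow; adjusted p = 0.0132 over 5 library measures). The groups also differed in how transcript levels followed transcript GC content. The slope of log2 level on GC, per 10 percentage points, was 0.00999 ± 0.0896 (SD, n = 5) in the Aroclor libraries and -0.376 ± 0.205 (SD, n = 5) in the combined libraries, again with no overlap (-0.110 to 0.143 and -0.650 to -0.120; difference -0.386; exact permutation p = 0.00794, adjusted p = 0.0132). This slope and the exposure cannot be told apart by the design, so most log2FC below are also given from a fit in which every library's GC trend was removed (GC-corrected).

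**Figure D1:**
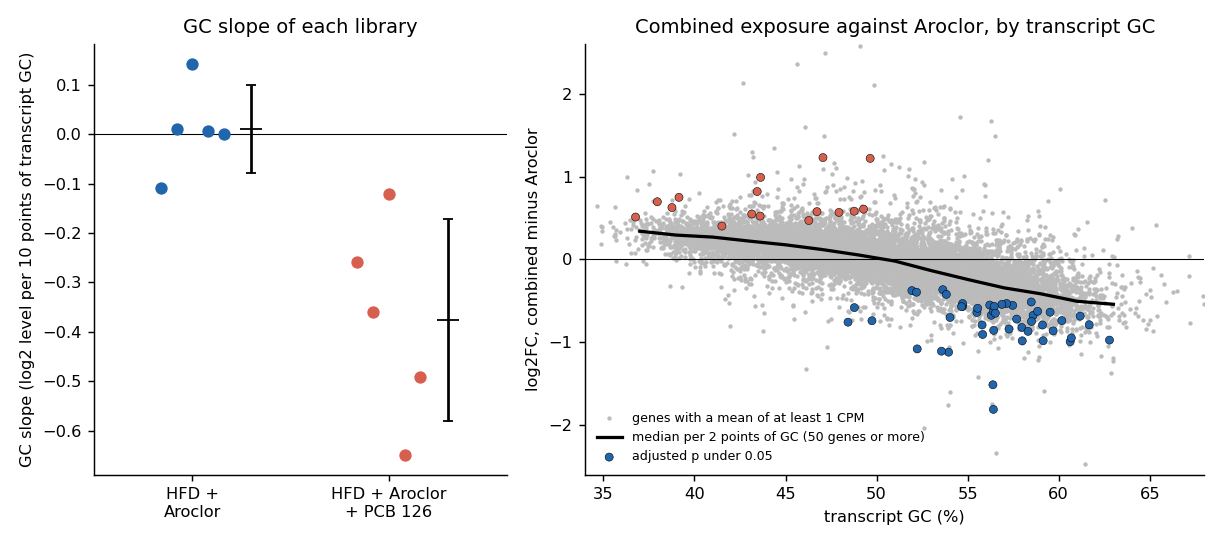
Left, the slope of log2 transcript level on GC content in each of the 10 libraries (points), with mean and SD per group (bars): all 5 combined-exposure libraries lie below all 5 Aroclor libraries. Right, the log2FC of each gene with a mean of at least 1 CPM (grey) against its transcript GC, with the median per 2 points of GC (line) and the genes with an adjusted p under 0.05 in colour (orange higher, blue lower): the line falls from left to right, orange genes lie at low to middle GC, and most blue genes lie at high GC (35 of 11358 genes fall outside the axes).

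In the edgeR fit used here few genes passed the test, a number that moved widely with the setting, as given below. At an adjusted p under 0.05 in edgeR's quasi-likelihood test with Benjamini-Hochberg adjustment, 64 of 15522 genes (0.412%) differed, 16 higher (0.103%) and 48 lower (0.309%) with the combined exposure. The size of the change was between -1.81 and 1.23 on the log2 scale, and only 2 of the higher and 5 of the lower genes passed a log2FC of 1 in size. In 60 of the 64 genes all 5 combined-exposure mice lay on the same side of all 5 Aroclor mice, which the choice of genes by their p largely sets (over all tested genes, 2.59% lay apart upward and 4.17% downward). The 16 higher genes had a median transcript GC of 43.6% and the 48 lower genes 56.4%, beside 50.7% over all tested genes.

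After GC correction every one of the 64 genes kept its direction, but the median log2FC went from 0.59 to 0.44 for the higher genes and from -0.71 to -0.38 for the lower genes, beside 0.02 and 0.01 over all tested genes. The GC-corrected fit called 11 genes (0.0709%), 3 higher (0.0193%) and 8 lower (0.0515%), of which 6 were among the 64. Without a correction for multiple tests, 1512 genes (9.74%) were higher and 2127 (13.7%) lower at p under 0.05, and 972 (6.26%) and 920 (5.93%) after GC correction. The number of calls changed widely when 1 mouse was left out. The adjusted p of the 64 genes lay between 0.0269 and 0.0493 (median 0.0489), just inside the threshold, and the count was 53 without Aroclor replicate 1, 2 without Aroclor replicate 2, 191 without combined replicate 1, 1011 without combined replicate 3 and 0 without any one of Aroclor replicates 3, 4 and 5 or combined replicates 2, 4 and 5. In those 6 fits with no call, edgeR gave 2295 to 3324 genes at an unadjusted p under 0.05, and the smallest adjusted p was 0.0559 to 0.108. A fit of the 10 libraries alone called 0 genes (4160 at an unadjusted p under 0.05), and DESeq2 on all 20 libraries called 1343.

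The AhR battery was the first group of interest, since PCB 126 acts on this receptor. Cyp1a2, a hepatic cytochrome P450 of drug and arylamine metabolism and a classical AhR target, was higher in every mouse with the combined exposure, yet its adjusted p was just past the threshold. The head-to-head neighbour Cyp1a1, the standard AhR marker, stayed near 1 CPM in both groups. Both lie on chromosome 9 (GRCm38), Cyp1a2 at 57676937-57683703 on the minus strand and Cyp1a1 at 57687928-57703824 on the plus strand. The 250 bases before their RefSeq starts (GRCm38.p6) are shown because the receptor acts through such DNA. Capitals mark GCGTG on either strand, or its complement CACGC.
Cyp1a2 (chr9:57683656-57683905, minus strand): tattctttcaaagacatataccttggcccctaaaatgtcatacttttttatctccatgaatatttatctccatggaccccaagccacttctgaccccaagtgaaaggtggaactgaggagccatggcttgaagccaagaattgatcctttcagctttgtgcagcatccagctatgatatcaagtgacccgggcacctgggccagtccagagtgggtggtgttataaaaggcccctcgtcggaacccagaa
Cyp1a1 (chr9:57697363-57697612, plus strand): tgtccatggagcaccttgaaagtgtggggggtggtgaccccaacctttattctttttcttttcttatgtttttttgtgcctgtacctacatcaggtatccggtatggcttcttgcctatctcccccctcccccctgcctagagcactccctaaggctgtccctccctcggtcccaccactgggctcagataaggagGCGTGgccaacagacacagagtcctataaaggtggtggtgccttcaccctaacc
The Cyp1a1 window holds 1 GCGTG, beginning 54 bases before the start, and the Cyp1a2 window holds none. The motif is common: 5561 of the 12071 tested genes with such a window (46.1%) and 7 of the 14 AhR-list genes with a window hold it, and a match is not a bound site.

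Cyp1a2 was at 492, 400, 279, 385 and 367 CPM in the 5 Aroclor mice and at 992, 856, 537, 632 and 858 CPM in the 5 combined-exposure mice. The lowest combined-exposure mouse was thus above the highest Aroclor mouse. The log2FC was 1.01 (SE 0.23, adjusted p = 0.0537) and 1.05 after GC correction, it stayed between 0.91 and 1.24 over all 22 alternative fits, and 7 of these fits called it (adjusted p 0.00233 to 0.301). Fmo2, a flavin-containing monooxygenase that dioxin-like compounds raise in mouse liver, rose from 24.8, 25.4, 12.97, 23.2 and 15.3 CPM with Aroclor to 48.1, 33.2, 26.7, 50.1 and 43.9 CPM with the combined exposure (log2FC 0.99, SE 0.22, adjusted p = 0.0493; 0.77 after GC correction). Its groups did not overlap either, and it was the only member of the 20-gene AhR list to pass the test, with none lower. Over all tested genes 0.103% were called higher and 0.309% lower.

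Cyp1a1 did not follow Cyp1a2. It was at 0.898, 1.23, 0.838, 0.737 and 0.922 CPM with Aroclor and at 0.792, 1.19, 0.875, 1.13 and 2.62 CPM with the combined exposure, so 4 of the 5 combined-exposure mice lay within the Aroclor range (log2FC 0.53, SE 1.03, adjusted p = 0.782; 0.49 after GC correction). Without combined replicate 5, the one mouse above that range, the log2FC was 0.11. In the mice given PCB 126 alone, which share no library with this comparison, Cyp1a1 was at 4.09, 7.80, 4.60, 314 and 62.1 CPM against 0.219 to 0.940 CPM in HFD control. All 5 of those mice were above all 5 combined-exposure mice.

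Arnt, with which AhR pairs on DNA, was at 35.0 ± 2.68 CPM (SD, n = 5) with Aroclor and 49.4 ± 4.21 CPM (SD, n = 5) with the combined exposure, with no overlap (log2FC 0.50, SE 0.12, adjusted p = 0.0558; 0.38 after GC correction). Ahr itself had a log2FC of 0.16 (adjusted p = 0.745) and -0.0062 after GC correction. Among other targets, Ugt1a6a, a glucuronosyltransferase, was at 12.2 to 17.2 CPM with Aroclor and 18.2 to 27.3 CPM with the combined exposure (log2FC 0.52, adjusted p = 0.116; 0.40 after GC correction), a locus whose first exons share the remaining exons with other Ugt1a genes, so its reads are uncertain. Tiparp, Nqo1 and Cyp1b1 had log2FC of 0.18, 0.11 and 0.90 (adjusted p = 0.791, 0.802 and 0.365), and -0.12, -0.031 and 0.88 after GC correction. All 3 of these overlapped between groups, and Cyp1b1 was lifted by combined replicate 4 at 6.84 CPM, beside 0.554 to 1.43 CPM in the other 4 mice. At an unadjusted p under 0.05, 5 of the 20 AhR-list genes were higher (25%, beside 9.74% of all tested genes) and 1 lower (5%, beside 13.7%), and DESeq2 called 4 higher and 1 lower (452 and 891 over all genes). The median log2FC of the list was 0.17 (0.11 after GC correction). Without Aroclor replicate 3, which stood apart from the other Aroclor mice as described with the acute phase genes, the list still had 5 higher and 1 lower, with a median of 0.10 and of -0.0076 after GC correction.

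**Figure D2:**
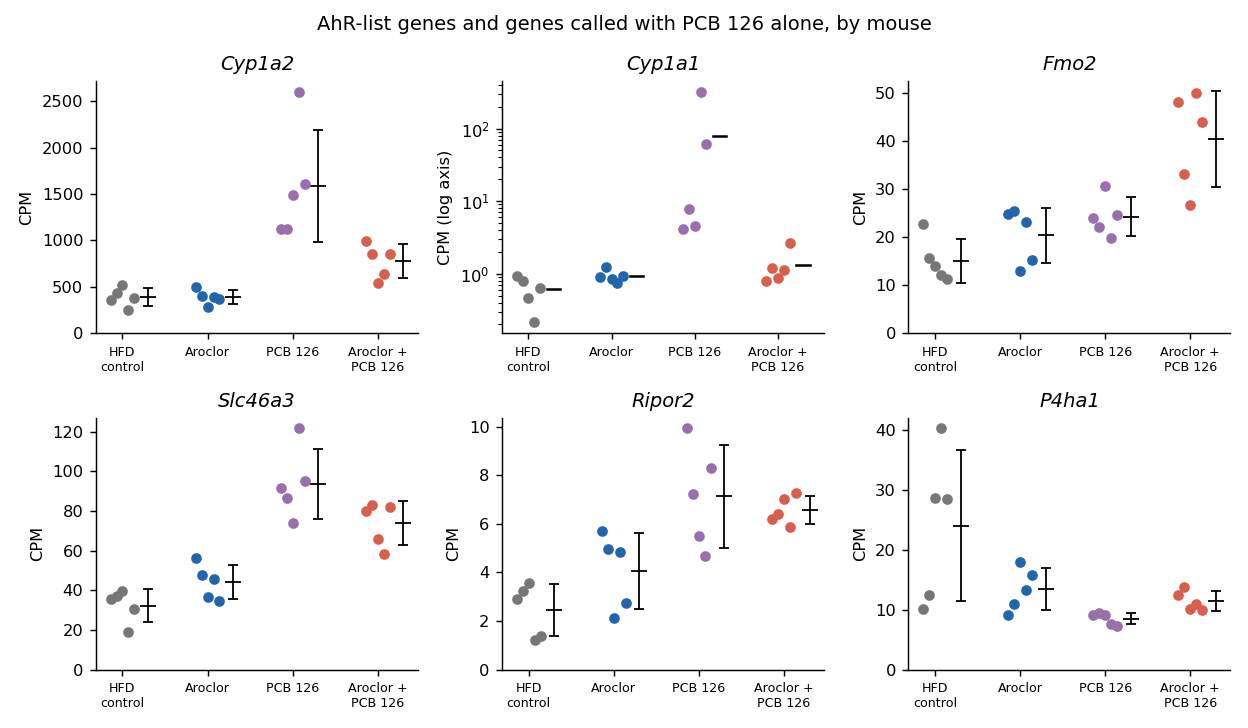
CPM of 3 AhR-list genes (Cyp1a2, Cyp1a1 and Fmo2) and 3 genes called with PCB 126 alone (Slc46a3, Ripor2 and P4ha1) in each mouse of the 4 groups (points; 5 per group), with mean and SD (black; Cyp1a1 is on a log axis with the mean only). Cyp1a2 and Slc46a3 lie higher in the combined group than with Aroclor, Cyp1a1 lies near 1 CPM in both, and P4ha1 overlaps.

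A direct comparison in other animals was possible, because the contrast of PCB 126 alone with HFD control uses the other 10 libraries. That contrast called 18 of the 15522 genes (0.116%), 16 higher and 2 lower. In the combined exposure against Aroclor all 18 had the same direction, beside 60.4% of all tested genes. All 18 had a smaller change, with a median size of the log2FC of 0.46 here and 1.01 with PCB 126 alone. Since the 18 were chosen by their change with PCB 126 alone, the smaller size is a description. The reference also differs, being Aroclor here and HFD control there. Aroclor minus HFD control was 0.81 for Sp4, 0.70 for Lonrf3, 0.71 for Ripor2 and -0.83 for P4ha1. None of these passed (adjusted p 0.184 to 0.241 in the same edgeR fit). For Cyp1a2 it was -0.0075. The part of this reference in the smaller change was not tested. Only Zfp280c, a zinc finger gene (log2FC 0.63 here, 0.84 alone), and Fam20a, a secretory pathway pseudokinase (-0.53 here, -0.65 alone), passed the test in both, which is 11.1% of the 18 and 3.13% of the 64. At an unadjusted p under 0.05, 12 of the 18 differed in the same direction here, beside 9.74% of all tested genes higher and 13.7% lower. After GC correction 9 did, beside 6.26% and 5.93%, 17 kept the direction and edgeR called 0 of the 18. The 2 contrasts share 1 estimate of each gene's spread, so the shares by p are a description.

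Slc46a3, a lysosomal transporter, was at 56.3, 47.9, 36.5, 45.5 and 34.7 CPM with Aroclor and 80.1, 83.0, 65.7, 58.4 and 82.2 CPM with the combined exposure, with no overlap (log2FC 0.74, SE 0.18, adjusted p = 0.0583; 0.75 after GC correction; 1.54 with PCB 126 alone). Lonrf3, a RING finger gene, had a log2FC of 0.97, or 1.03 when GC-corrected (adjusted p = 0.0616 before correction), and Ripor2, a RhoA-interacting gene, 0.69 (adjusted p = 0.16; 0.66 after GC correction), beside 1.47 and 1.52 with PCB 126 alone. P4ha1, the catalytic subunit of collagen prolyl 4-hydroxylase, was lower with PCB 126 alone (-1.49) and was at 9.21 to 18.1 CPM with Aroclor and 9.90 to 13.8 CPM here (log2FC -0.24, adjusted p = 0.624; -0.38 after GC correction). Cdcp1, a transmembrane glycoprotein, had a log2FC of 0.45 here (0.44 after GC correction) and 1.17 alone. Cyp1a2 and Cyp1a1 were also among the 18, with log2FC of 1.01 and 0.53 here and 2.04 and 6.93 with PCB 126 alone. The remaining members were Eif4e3 (0.44 here), Sp4 (0.28), Fzd4 (0.43), Mpv17l (0.30), Nmrk1 (0.56), AU041133 (0.47), Tlr5 (0.23), Mterf2 (0.07) and Tgfbr2 (0.28), each with a log2FC between 0.58 and 1.05 with PCB 126 alone. After GC correction Mterf2 was at -0.059 here, the 1 member of the 18 to turn direction. Across all genes, the difference between the effect of PCB 126 with and without Aroclor was called in 0 genes by edgeR (1846, or 11.9%, at an unadjusted p under 0.05) and in 1 by DESeq2. That unadjusted p was met by 11 of the 18 genes (61.1%) and 33 of the 64 (51.6%), sets chosen by 1 of the 2 effects that this difference compares.

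**Figure D3:**
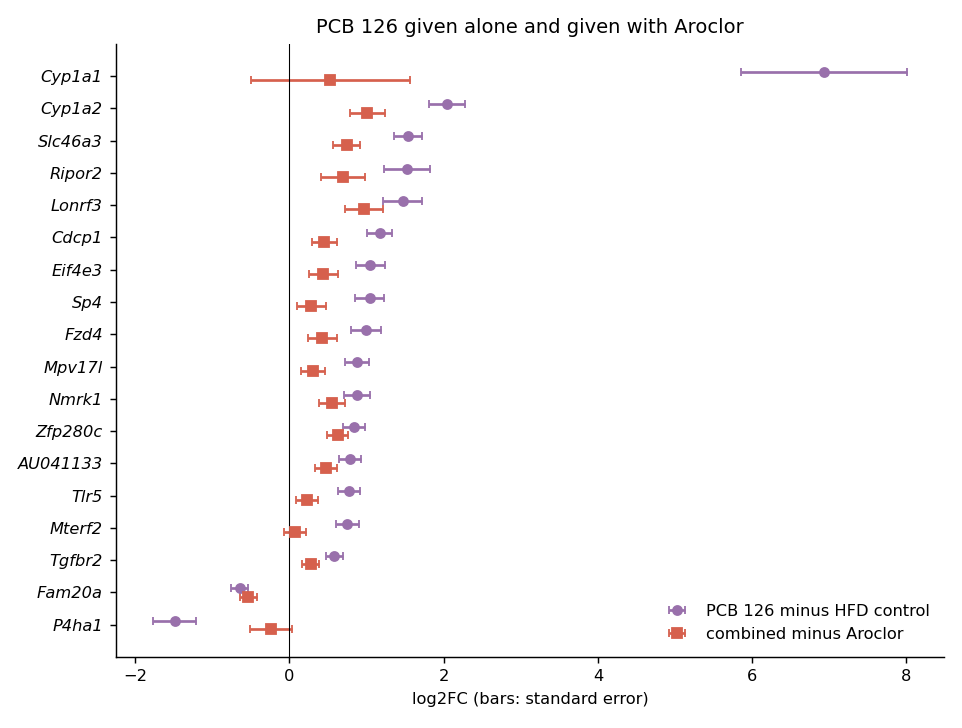
log2FC with standard error of the 18 genes called by PCB 126 against HFD control, in that contrast (purple circles) and in the combined exposure against Aroclor (orange squares), which use different mice. All 18 pairs lie on the same side of 0, and each square is nearer to 0 than its circle, the widest gap being that of Cyp1a1 (6.93 and 0.53).

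The same other animals bear on the 64 genes. Of these, 58 (90.6%) had the same direction with PCB 126 alone against HFD control, beside 60.4% of all tested genes, and 32 (50%) also had an unadjusted p under 0.05 there, beside 9.81% of all tested genes. With both contrasts GC-corrected the same shares were 75.0% beside 54.4%, and 43.8% beside 9.11%. The mean GC slope was 0.115 in the PCB 126 libraries and 0.252 in HFD control, so the slope differed in the same direction in both contrasts, and its part in the shared direction of the uncorrected values was not tested.

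There were 6 genes that passed the test in both the uncorrected and the GC-corrected fit, 5 lower and 1 higher. Spon2, a secreted matrix protein of the F-spondin family (chromosome 5, 33198184-33218455, minus strand), was at 6.45, 5.69, 13.1, 10.7 and 12.1 CPM with Aroclor and 2.86, 2.26, 5.14, 1.49 and 1.92 CPM with the combined exposure. Every combined-exposure mouse was below every Aroclor mouse, and the log2FC of -1.81 (SE 0.28, adjusted p = 0.0269; -1.53 after GC correction) was the lowest of the 64. Cbs, cystathionine beta-synthase, which makes cystathionine from homocysteine and serine (chromosome 17, 31608894-31637238, minus strand), fell from 179, 213, 229, 234 and 235 CPM to 141, 131, 137, 71.5 and 101 CPM (log2FC -0.91, SE 0.15, adjusted p = 0.0269; -0.65 after GC correction). The groups were again apart, and combined replicates 4 and 5 were the lowest.

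Camk1d, a calcium/calmodulin-dependent kinase, fell from 24.2 to 31.2 CPM with Aroclor to 14.03 to 19.7 CPM (log2FC -0.74, SE 0.16, adjusted p = 0.0489), and Maged1, a MAGE-family adaptor protein, from 71.9 to 83.1 CPM to 43.0 to 60.4 CPM (-0.58, SE 0.12, adjusted p = 0.0489). Both kept their size after GC correction, at -0.78 and -0.66, and both have a transcript GC near the median (49.7% and 48.8%). Dnajb6, an HSP40 co-chaperone, was the higher one, at 16.2 to 20.3 CPM with Aroclor and 21.4 to 29.8 CPM with the combined exposure (log2FC 0.57, SE 0.10, adjusted p = 0.04; 0.46 after GC correction), and its span overlaps Gm5129. Over the 22 alternative fits Spon2 and Nr1d1, the sixth of these genes, were called in 14 each, Dnajb6 in 13, Cbs and Camk1d in 12 each and Maged1 in 11, and none of the 6 changed direction. Each of the 6 was called in 3 or 4 of the 10 fits that left out 1 mouse.

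**Figure D4:**
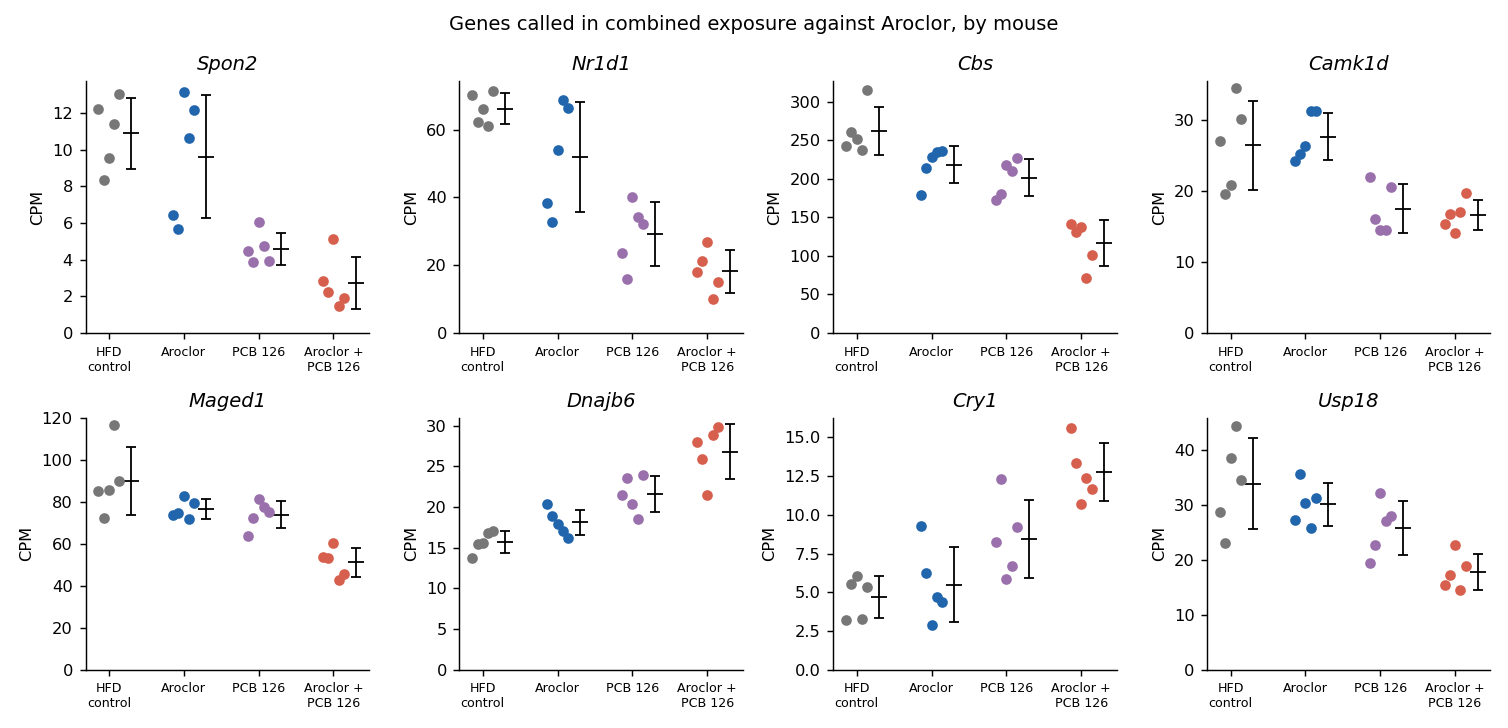
CPM in each mouse of the 4 groups (points; 5 per group) with mean and SD (black bars) of the 6 genes called both with and without GC correction (Spon2, Nr1d1, Cbs, Camk1d, Maged1 and Dnajb6) and of Cry1 and Usp18, which were called without it only. In all 8 panels the combined-exposure mice lie apart from the Aroclor mice.

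Genes of the circadian clock, a feedback loop of activators and repressors that times liver metabolism, included 2 of the calls. Of 19 tested members 1 was higher and 1 lower, beside 0.103% and 0.309% of all tested genes. Nr1d1, the nuclear receptor REV-ERB alpha, which represses Arntl and other clock and lipid genes, was at 38.4, 32.8, 53.9, 68.8 and 66.5 CPM with Aroclor and 17.9, 21.3, 26.8, 10.03 and 15.2 CPM with the combined exposure. It fell in all 5 mice below the Aroclor range (log2FC -1.51, SE 0.25, adjusted p = 0.0269; -1.23 after GC correction). Its span (chromosome 11, 98767932-98775333, minus strand) overlaps Thra on the other strand, and since the sources used here do not say whether counting used the strand, reads of the overlap are uncertain. Cry1, a cryptochrome that represses CLOCK and BMAL1, rose from 9.24, 6.21, 2.86, 4.67 and 4.40 CPM to 15.6, 13.3, 10.7, 12.4 and 11.7 CPM (log2FC 1.22, SE 0.26, adjusted p = 0.0489; 1.18 after GC correction). The 2 genes thus moved in opposite directions, each without overlap.

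The 250 bases before their RefSeq starts (GRCm38.p6) are shown because the clock acts through the E-box CACGTG, a motif added after the values were seen. Capitals mark CACGTG and, as above, GCGTG or CACGC.
Nr1d1 (chr11:98775378-98775627, minus strand): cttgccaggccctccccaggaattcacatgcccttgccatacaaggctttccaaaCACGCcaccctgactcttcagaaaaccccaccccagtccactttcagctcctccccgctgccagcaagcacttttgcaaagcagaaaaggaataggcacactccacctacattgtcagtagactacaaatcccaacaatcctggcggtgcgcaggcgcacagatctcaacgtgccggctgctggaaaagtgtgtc
Cry1 (chr10:85185055-85185304, minus strand): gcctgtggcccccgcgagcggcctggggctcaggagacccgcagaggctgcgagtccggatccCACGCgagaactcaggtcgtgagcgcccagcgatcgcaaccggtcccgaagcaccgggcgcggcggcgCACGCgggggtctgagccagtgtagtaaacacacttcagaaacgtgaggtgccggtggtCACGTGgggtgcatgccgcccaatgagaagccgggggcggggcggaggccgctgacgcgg
The Cry1 window holds 1 E-box, beginning 60 bases before the start, and 2 copies of the AhR core, and the Nr1d1 window holds no E-box and 1 AhR core. An E-box is in the windows of 9.12% of the tested genes and in 5 of the 16 clock genes with a window.

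The other 17 tested members of the 19-gene clock list did not pass the uncorrected test. Dbp, a PAR-bZIP output factor whose span overlaps Sphk2, was at 101 ± 17.4 CPM (SD, n = 5) with Aroclor and 56.7 ± 15.2 CPM (SD, n = 5) with the combined exposure (log2FC -0.83, adjusted p = 0.0964; -0.47 after GC correction), and Bhlhe41, a repressor of the loop, at 10.6 ± 3.25 and 6.42 ± 1.57 CPM (-0.73, adjusted p = 0.102; -0.86 after GC correction). Cipc, a CLOCK-interacting repressor that is not on the list, was at 50.2 to 63.8 CPM with Aroclor and 68.9 to 82.8 CPM with the combined exposure and passed the test after GC correction and not before it (log2FC 0.40, adjusted p = 0.0548; 0.63, adjusted p = 0.0186 after correction), and was called in 10 of its 22 alternatives (adjusted p 0.00102 to 0.35). Without adjustment (p under 0.05), 3 clock genes were higher and 4 lower (15.8% and 21.1%, beside 9.74% and 13.7% of all tested genes), and the median log2FC of the list was -0.08 (0.01 after GC correction). The hour at which each mouse was killed is not given in the sources used here.

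Interferon-stimulated genes, the antiviral set switched on by interferon receptors, had 2 of 27 tested members lower and none higher, beside 0.309% and 0.103% of all tested genes. Usp18, which removes ISG15 from proteins and damps interferon receptor signalling, fell from 27.3, 35.8, 30.4, 25.9 and 31.4 CPM to 15.5, 17.2, 22.8, 14.6 and 19.0 CPM (log2FC -0.76, SE 0.17, adjusted p = 0.0493; -0.84 after GC correction), with no overlap. Oasl1, an inhibitor of Irf7 translation, fell from 17.8 to 20.8 CPM to 6.84 to 17.2 CPM (log2FC -0.86, SE 0.19, adjusted p = 0.0493; -0.58 after GC correction). Isg15, the ubiquitin-like modifier itself, was at 13.7 to 21.97 CPM with Aroclor and 5.599 to 12.5 CPM with the combined exposure but did not pass (log2FC -0.98, adjusted p = 0.0562; -0.90 after GC correction). Ddx58, the RNA sensor RIG-I, passed after GC correction and not before it (-0.28, adjusted p = 0.0959; -0.45 after correction).

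Of the 27 genes, 12 were lower (44.4%, beside 13.7% of all tested genes) and 0 higher at an unadjusted p under 0.05, and 13 (48.1%, beside 5.93%) and 0 after GC correction, with a median log2FC of -0.32 (-0.28 after correction). Without Aroclor replicate 3 there were 12 lower and 0 higher, with a median of -0.31. DESeq2 called 4 lower. Outside the list, and grouped here by function after their values were seen, Dhx58, the RIG-I-like receptor LGP2, fell from 17.7 to 19.7 CPM to 8.99 to 15.1 CPM (log2FC -0.70, adjusted p = 0.0489; -0.54 after GC correction). Tap1 and Tap2, the transporter subunits that load peptides for MHC class I, fell by 0.79 and 0.82 on the log2 scale (adjusted p = 0.0269 and 0.0489), by 0.52 and 0.47 after GC correction, and their spans overlap Psmb9 and Gm15821. The NF-kB subunits Rela and Nfkb2 and the TNF receptor Tnfrsf1a fell by 0.63, 0.79 and 0.53 (adjusted p = 0.0489, 0.0489 and 0.0493). After GC correction these were -0.23, -0.41 and -0.21. The summed level of 20 Kupffer cell and macrophage markers was 534 to 977 CPM with Aroclor and 512 to 753 CPM with the combined exposure, with none called. At an unadjusted p under 0.05, 4 were lower (20%, beside 13.7% of all tested genes), C1qa, C1qb and C1qc among them, and 0 after GC correction. DESeq2 called 1 lower, and the part of these cells in the lower immune transcripts was not tested.

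Genes of CAR and PXR, through which Aroclor acts, did not pass the test: 0 of 33 tested members were called by edgeR. Over all tested genes the share called was 0.412%, so 0 in a list of this size says little. At an unadjusted p under 0.05, 8 were higher (24.2%, beside 9.74% of all tested genes) and 1 lower (3 and 0 after GC correction, when 9.09% beside 6.26% were higher), the median log2FC was 0.29 (0.19 after correction), and DESeq2 called 5 higher and 1 lower. Nr1i3, the gene of CAR itself, was at 305 to 506 CPM with Aroclor and 548 to 662 CPM with the combined exposure, with no overlap (log2FC 0.62, adjusted p = 0.127; 0.78 after GC correction), and its span overlaps Tomm40l. Cyp3a25 was at 554 to 910 CPM and 936 to 1252 CPM (log2FC 0.47, adjusted p = 0.0926), and Cyp3a11, the main PXR target, at 1749 to 4749 CPM and 3267 to 5866 CPM (0.54, adjusted p = 0.17), which after GC correction left 0.19 and 0.25. The CAR marker Cyp2b10 varied widely within both groups, from 2.89 to 30.7 CPM with Aroclor and from 1.43 to 25.7 CPM with the combined exposure (log2FC -0.25, adjusted p = 0.857; -0.24 after GC correction), and Rxra, the partner of both receptors, had -0.48 (adjusted p = 0.0882; -0.11 after GC correction). Gstm3, a glutathione transferase, was lower in every combined-exposure mouse (14.7 to 28.4 CPM against 29.5 to 63.7 CPM) but its log2FC of -0.97 (-0.86 after GC correction) had an SE of 0.60 (adjusted p = 0.332).

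The RNA-modifying enzymes and readers, the genes the study set out to follow, had 0 of 47 tested members called by edgeR. The list takes its members from the study. It thus counts Igfbp1, Igfbp2 and Igfbp3 as m6A readers, although these symbols stand for insulin-like growth factor binding proteins. Every count, share and median of the list includes them. With 0.412% of all tested genes called, 0 in a list of this size says little. The smallest adjusted p was 0.0636, for Prrc2a, an m6A reader (51.2 ± 12.2 CPM with Aroclor, 32.6 ± 9.20 CPM with the combined exposure, SD, n = 5; log2FC -0.65, -0.23 after GC correction). Pus10, a pseudouridine synthase whose span overlaps Pex13, was at 18.6 to 26.4 CPM with Aroclor and 26.9 to 35.8 CPM with the combined exposure (log2FC 0.42, adjusted p = 0.111; 0.22 after correction). At an unadjusted p under 0.05, 7 of the 47 were higher and 6 lower (14.9% and 12.8%, beside 9.74% and 13.7% of all tested genes), and 1 and 2 after GC correction. The median log2FC of the list was 0.12 and 0.01, and DESeq2 called 2 higher and 3 lower. Nsun7, of the NSUN family of RNA methyltransferases and not on the list, rose from 0.292 to 0.437 CPM with Aroclor to 0.595 to 1.02 CPM (log2FC 1.23, SE 0.24, adjusted p = 0.0489; 1.09 after GC correction), a low level in both groups.

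Among metabolic genes, the calls outside the fixed lists, grouped after their values were seen, included enzymes and carriers of amino acids and of glycerol phosphate that were lower. Besides Cbs, there were Agxt, the peroxisomal alanine-glyoxylate aminotransferase (191 to 264 CPM with Aroclor, 125 to 167 CPM with the combined exposure; log2FC -0.55, adjusted p = 0.0493), Amt, the T-protein of glycine cleavage (66.9 to 80.8 and 50.1 to 60.5 CPM; -0.40, adjusted p = 0.0489), Slc25a22, a mitochondrial glutamate carrier (99.5 to 170 and 43.5 to 81.4 CPM; -0.98, adjusted p = 0.0489), and Gpd1, cytosolic glycerol-3-phosphate dehydrogenase (424 to 648 and 220 to 430 CPM; -0.72, adjusted p = 0.0493). Gpd1 overlapped between groups and the other 3 did not. After GC correction the 4 had log2FC of -0.26, -0.33, -0.60 and -0.38, none of them called. Atf5, a stress-response transcription factor whose span overlaps Il4i1 and Nup62, fell from 147 to 313 CPM to 91.6 to 137 CPM (-0.79, adjusted p = 0.0489; -0.29 after GC correction).

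The metabolic lists themselves held no call in the uncorrected fit, which called 0.412% of all tested genes. Over all tested genes, 9.74% were higher and 13.7% lower at an unadjusted p under 0.05 (6.26% and 5.93% after GC correction), and DESeq2 called 452 higher and 891 lower. Of 23 lipogenesis genes, 0 were higher and 4 lower at that p (17.4%; DESeq2 called 2 lower), and Elovl5, a fatty acid elongase, was called lower after GC correction (1007 to 1090 CPM with Aroclor, 655 to 910 CPM with the combined exposure; log2FC -0.42, adjusted p = 0.0675; -0.55 after correction). Of 19 lipid droplet genes, 1 was higher and 7 lower (36.8%; 21.1% after GC correction), with a median log2FC of -0.30 that was -0.02 after GC correction, and DESeq2 called 5 lower. Oxidative phosphorylation had 2 higher and 19 lower of 81 (23.5% lower; 0 and 10 after correction; DESeq2 5 lower). PPAR alpha and fatty acid oxidation had 2 higher and 5 lower of 33 (15.2% lower), cholesterol synthesis 2 and 5 of 26 (19.2% lower), bile acids 1 and 2 of 24 (8.33% lower) and glucose handling 3 and 6 of 26 (23.1% lower). NRF2 targets had 0 and 4 of 22 (18.2% lower), phase II enzymes 10 and 2 of 39 (25.6% higher, and 0 higher after GC correction), heme and iron 2 and 6 of 25 (24% lower, and 0 lower after GC correction) and ER stress 0 and 4 of 23 (17.4% lower). In these 8 lists DESeq2 called 0 and 1, 1 and 2, 0 and 1, 2 and 4, 0 and 4, 3 and 2, 1 and 1 and 0 and 1 genes (higher and lower). At that p after GC correction, NRF2 targets had 0% higher and 22.7% lower, and glucose handling 7.69% and 15.4%. ER stress then had 8.7% and 13%, bile acids 0% and 12.5%, and cholesterol synthesis 7.69% and 7.69%. PPAR alpha and fatty acid oxidation had 0% and 0%, and lipogenesis 0% and 8.7%. Pericentral genes, which include Cyp1a2, had 4 higher and 1 lower of 17 (DESeq2 2 higher), periportal genes 0 and 3 of 16 (DESeq2 none), and growth hormone and STAT5 genes 3 and 2 of 27 (DESeq2 1 higher). After GC correction these 3 lists had 3 and 0, 0 and 0, and 3 and 1.

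The acute phase proteins, secreted by hepatocytes during inflammation, rested on 1 mouse. With all mice, 0 of 23 were higher and 5 lower at an unadjusted p under 0.05 (21.7% lower, beside 13.7% of all tested genes). After GC correction 0 were higher and 6 lower (26.1%, beside 5.93%), and DESeq2 called 1 lower. The median log2FC of the acute phase genes was -0.34 (-0.38 after correction). Their summed level was 48616 CPM in Aroclor replicate 3, beside 22362 to 24496 CPM in the other 4 Aroclor mice and 17387 to 28039 CPM with the combined exposure. Across all genes the same mouse was also the farthest from its group, with a chi-square per degree of freedom of 80.6 to 106 against each of the others, beside 18.7 to 76.5 among those. Without it 0 acute phase genes were higher and 0 lower at that p, in both fits, and the median was -0.02 (-0.08 after GC correction), a setting chosen after seeing the data.

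**Figure D5:**
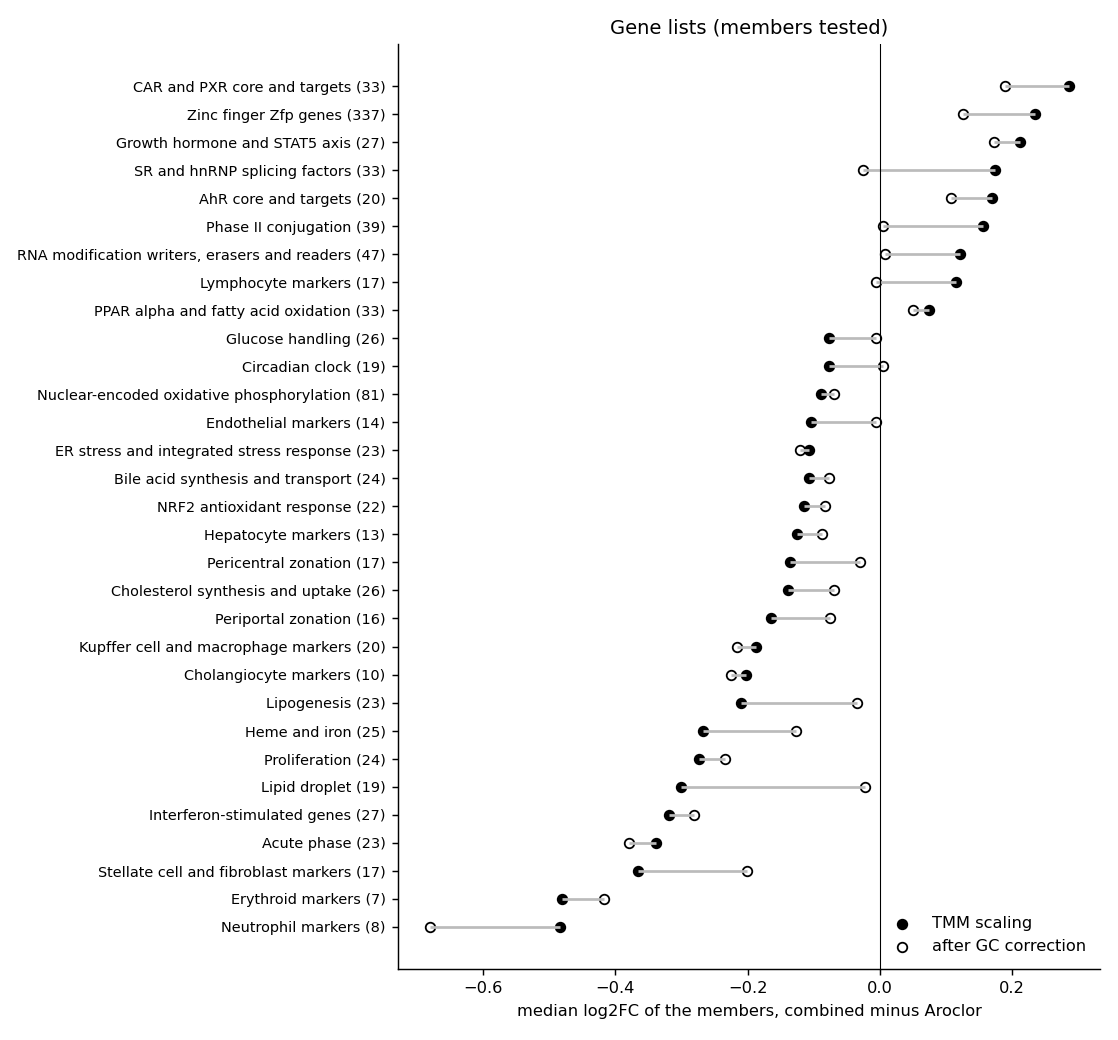
Median log2FC (combined exposure minus Aroclor) of the tested members of each gene list, with TMM scaling (filled) and after GC correction (open), with the number of members tested in brackets. The interferon, acute phase, stellate, cholangiocyte, neutrophil, erythroid and proliferation medians stay below -0.2 in both fits, while the splicing factor, lipid droplet and lipogenesis medians move to near 0 after correction. Without Aroclor replicate 3 (not shown) the acute phase and neutrophil medians were -0.02 and -0.09 with TMM scaling, and -0.08 and -0.19 after GC correction.

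Among the higher genes, zinc finger (Zfp) genes gave 3 of 337 tested list members, Zfp976, Zfp715 and Zfp317, and 0 lower, beside 0.103% higher and 0.309% lower over all tested genes. The list takes only symbols that end in a number, so it leaves out Zfp280c, the other Zfp gene called higher. Zfp976 rose from 2.53 to 3.41 CPM with Aroclor to 4.09 to 5.16 CPM (log2FC 0.70, adjusted p = 0.04), and this became 0.37 after GC correction, the transcript having a GC content of 37.96%. Without adjustment (p under 0.05), 79 of the 337 were higher (23.4%, beside 9.74% of all tested genes) and 14 lower, and 37 (11%, beside 6.26%) and 3 after GC correction; DESeq2 called 25 higher and 4 lower. Vps13a, a lipid transfer protein of membrane contact sites, rose from 14.3 to 18.9 CPM to 21.7 to 33.0 CPM (log2FC 0.75, SE 0.14, adjusted p = 0.04; 0.45 after correction). Col27a1, a fibrillar collagen chain, passed after GC correction and not before it (18.3 to 28.7 CPM and 28.9 to 48.6 CPM; log2FC 0.70, adjusted p = 0.0959; 1.13 after correction). Splicing factors had 8 higher and 1 lower of 33 at an unadjusted p under 0.05, and 2 and 2 after correction (DESeq2 4 higher). Gnat1, a transducin alpha subunit, was among the lower genes with the largest change, falling from 3.52 to 9.39 CPM to 2.18 to 3.22 CPM (log2FC -1.12, SE 0.24, adjusted p = 0.0489; -0.95 after GC correction).

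None of the marker lists of other liver cells held a call by edgeR, which called 0.412% of all tested genes, and DESeq2 called none outside the macrophage list. At an unadjusted p under 0.05, stellate cell markers had 0 higher and 4 lower of 17, lymphocyte markers 1 and 0 of 17, and endothelial, cholangiocyte, neutrophil and erythroid markers 0 and 0 of 14, 10, 8 and 7. This was 23.5% of stellate markers lower and 5.88% of lymphocyte markers higher, beside 13.7% lower and 9.74% higher over all tested genes. After GC correction stellate markers had 1 higher and 1 lower, cholangiocyte markers 1 higher, and the others none. The summed levels of stellate markers were 435 to 633 CPM with Aroclor and 453 to 526 CPM with the combined exposure, of endothelial markers 251.8 to 447 and 274 to 345 CPM, and of neutrophil markers 3.62 to 10.98 and 4.00 to 6.12 CPM, ranges that overlap in each case. The medians of their log2FC were -0.37 for stellate, -0.48 for neutrophil, -0.48 for erythroid, -0.20 for cholangiocyte and -0.10 for endothelial markers (-0.20, -0.68, -0.42, -0.23 and -0.0052 after GC correction). Without Aroclor replicate 3 the neutrophil median was -0.09 (-0.19 after GC correction), and the part of these cells in the lower transcripts was not tested. Proliferation genes had 0 higher and 5 lower of 24 at that p (20.8% lower), and 0 and 3 after GC correction (12.5%, beside 5.93% of all tested genes). DESeq2 called 3 of them lower. Mcm4, a subunit of the replicative helicase, was called lower after GC correction (6.12 to 8.17 and 5.41 to 5.99 CPM; log2FC -0.35, adjusted p = 0.0963; -0.52 after correction).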

How the data were processed

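Liver RNA of 20 male mice (4 groups of 5) was sequenced as stranded mRNA libraries over 2 runs. The authors checked reads with FastQC (0.10.1), aligned them to GRCm38.p6 with STAR (2.6), counted them per gene with HTSeq (0.10.0), and deposited 1 table of raw counts, with no normalization; versions are per the submitters' processing notes. Which annotation release was used, and whether counting used the strand, is not given in the sources used here, so genes overlapping another gene are named as such. Samples were grouped by the labels, and 0 columns were left unmapped. For replicate 2 of the HFD + PCB 126 group, a number inside the label differs from its title, and the title was followed.

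Genes whose counts summed to 10 or more across the 20 libraries were tested with edgeR (4.0.16, R 4.3.3): TMM scaling, 1 fit of all 4 groups (16 residual degrees of freedom), the quasi-likelihood test of combined exposure against Aroclor, and Benjamini-Hochberg adjustment over all tested genes (threshold 0.05). The GC-corrected fit added offsets from a spline (6 degrees of freedom) of each library on transcript GC. The scripts were tested on simulated data. Levels are CPM (each count divided by the scaled library total) computed here from the deposited counts, and compare mice, not genes. Alternatives were other scalings, filters and designs, DESeq2 (1.42.0), and leaving out each mouse.

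The genes named were the AhR and CAR and PXR list members with a mean of at least 1 CPM, the RNA modification genes that passed, the genes called in both fits, those called with PCB 126 alone and up to 4 called members of each other list, of which the text gives part. Other named genes were chosen after their values were seen. The comparison and the lists were chosen with earlier results of these data known. The symbols of cytosolic ribosomal protein and mitochondrially encoded genes matched 0 of the 21780 genes of the count table, so these are not analysed here. Library totals and CPM were computed from the genes in that table. A few genes that the rule names are not reported here.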

Additional observations from a re-analysis of the deposited data

Results flagged for a closer look

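Of 124 sets of 5 values tested, 7 had 1 mouse whose gap to the others exceeded Dixon's critical value of 0.71 as a share of the range, and chance flags about 1 set in 20. With the combined exposure these were Cyp1a1 in replicate 5 (2.62 CPM, the others 0.792 to 1.19 CPM) and Cyp1b1 in replicate 4 (6.84 CPM, the others 0.554 to 1.43 CPM). With Aroclor, Ugt1a6a and Isg15 stood apart in replicate 2 (12.2 CPM, the others 16.3 to 17.2 CPM, and 21.97 CPM, the others 13.7 to 15.99 CPM). Cyp3a25 and Bhlhe41 stood apart in Aroclor replicate 3 (554 CPM, the others 817 to 910 CPM, and 16.3 CPM, the others 7.95 to 10.02 CPM). The number of genes detected was 15295 in Aroclor replicate 4, beside 14830 to 14954 in the other 4 Aroclor mice.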

How the results depend on the processing

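The number of genes called moved with most settings, while directions mostly did not: of 1268 values of single named genes under the alternatives, 850 kept their direction and side of the threshold, 72 passed it only under the alternative, 333 no longer passed and 13 turned direction. Calls (changed, higher and lower) were 11, 3 and 8 with GC correction, 4, 2 and 2 with GC and length correction, 2, 1 and 1 with the GC slope as a covariate, 107, 34 and 73 with DESeq2-type size factors, 251, 105 and 146 with upper-quartile scaling, and 1343, 452 and 891 with DESeq2. They were 13, 7 and 6 with no filter, 292, 97 and 195 with edgeR's own filter, 728, 240 and 488 with the study's FPKM filter, 0, 0 and 0 with the 10 libraries alone (4160 at an unadjusted p under 0.05), and 0, 0 and 0 at an adjusted p under 0.01. All 64 genes were among the calls under the size factors, upper-quartile scaling, edgeR's filter and the replicate block, 63 under DESeq2, 58 under the FPKM filter and 13 with no filter. Leaving out 1 mouse gave 0 to 1011 changed, 0 to 279 higher and 0 to 732 lower genes. With GC correction it gave 0 to 38 changed genes (12 and 2 without Aroclor replicates 1 and 2, 5 and 38 without combined replicates 1 and 3, 0 without any of the other 6, which had 1076 to 1817 at an unadjusted p under 0.05), and 3 with the 10 libraries alone; both settings were added after seeing the data. The difference in GC slope was -0.450 to -0.318 when 1 mouse was left out. The cause of these moves was not tested.

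With the replicate number as a block, 475 genes were called, 153 higher and 322 lower, and with the block and GC correction 43, 29 and 14. Same-numbered mice of the Aroclor and combined groups correlated at -0.0614, -0.115, 0.365, -0.00664 and 0.00312. These few values do not show that the numbers pair the mice and cannot exclude it. The block called 38 genes for the difference between the 2 effects of PCB 126, as did the block with GC correction, and DESeq2 called 1. Of the genes called with PCB 126 alone, those also called here were 5 of 55 with GC correction, 4 of 69 with GC and length, 2 of 747 with the GC slope as a covariate, 3 of 18 with DESeq2-type size factors, 5 of 9 with upper-quartile scaling, 78 of 310 with DESeq2, 0 of 19 with no filter, 12 of 68 with edgeR's filter, 17 of 48 with the FPKM filter, 21 of 101 with the block and 10 of 141 with the block and GC correction.

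Values that turned direction were those of Cyp1b1 (-0.67 with the GC slope as a covariate, -0.13 without combined replicate 4, the highest with 1 mouse left out being 1.14), Ahr (-0.0062 with GC correction, -0.46 with the covariate), Nqo1 (-0.031 with GC correction, -0.030 with GC and length, -0.019 with the block and GC), Tiparp (-0.12, -0.077 and -0.13 in the same order, -0.73 with the covariate) and Cyp2b10 (0.30 without Aroclor replicate 2, 0.04 without combined replicate 3, the lowest with 1 mouse left out being -0.76), none of which passed the test.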
